A study of Mus musculus with 10 samples.

Results

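Otp, Sim1, Nkx2-1, Nr5a1, Fezf1, Tbx3, Isl1, Six3, Six6 and Lhx1 are 10 genes for transcription factors that define nuclei of the hypothalamus. They were taken by name, were matched to their Ensembl gene IDs through GENCODE M21, and are 10 of 47729 genes in the count table. RNA was sequenced from brain regions of mice of the outbred CF1 stock, taken on postnatal day 56. The offspring of the LP group came from parents given a low-protein diet at mating, with the dam kept on it through pregnancy and nursing, and the offspring of the NP group from parents on a normal-protein diet. Both groups were weaned at postnatal day 21 and all were then kept on the NP diet for 5 weeks, so no animal was on low protein when sampled. There was 1 library each of LP male and NP male hypothalamus. Hippocampus and prefrontal cortex each had 4 libraries, LP male, LP female, NP male and NP female, so the 10 libraries formed 5 LP and NP pairs. The labels name no transgene or other treatment. They do not say whether a library is 1 animal or a pool, nor whether regions came from the same animals. The p-values therefore measure the spread between these libraries, which may be technical. Those between regions take no account of animals that regions may share.

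Hypothalamic nuclei are groups of neurons that set hormone release, feeding, body temperature and daily rhythm. Each is specified in the embryo by a small set of transcription factors, many of which stay on in adult neurons and keep up the genes of their peptides and receptors. Otp and Sim1 act together in the paraventricular and supraoptic nuclei, Nr5a1 and Fezf1 in the ventromedial nucleus, Nkx2-1, Tbx3 and Isl1 in the tuberal region with the arcuate nucleus, and Six3, Six6 and Lhx1 in the suprachiasmatic nucleus, the circadian pacemaker.

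Because the genes shared 1 regional pattern, their promoters are shown for features in common. RefSeq promoter windows (GRCm38.p6, 300 bases, from 250 before to 50 after the start) were at hand for 8 of the 10 genes, all but Nr5a1 and Tbx3. The CCAAT box, a common promoter element, was found on either strand in 6 of these 8, namely Otp, Fezf1, Isl1, Six3, Six6 and Lhx1. It was present in 37.9% of all 27018 promoters of the same length, 1 per gene. The windows of Otp (chr13:94875386-94875685, plus strand), Isl1 (chr13:116309639-116309938, minus strand), Six3 (chr17:85620584-85620883, plus strand) and Six6 (chr12:72939632-72939931, plus strand) are given 5′ to 3′ along the gene, with each CCAAT, or ATTGG on the opposite strand, in capitals.
Otp: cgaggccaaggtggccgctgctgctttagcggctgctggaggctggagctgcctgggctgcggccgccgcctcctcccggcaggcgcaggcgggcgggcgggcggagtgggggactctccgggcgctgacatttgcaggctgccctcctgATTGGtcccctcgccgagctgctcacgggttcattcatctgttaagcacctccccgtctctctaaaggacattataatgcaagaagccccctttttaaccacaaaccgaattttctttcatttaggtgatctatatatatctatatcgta
Isl1: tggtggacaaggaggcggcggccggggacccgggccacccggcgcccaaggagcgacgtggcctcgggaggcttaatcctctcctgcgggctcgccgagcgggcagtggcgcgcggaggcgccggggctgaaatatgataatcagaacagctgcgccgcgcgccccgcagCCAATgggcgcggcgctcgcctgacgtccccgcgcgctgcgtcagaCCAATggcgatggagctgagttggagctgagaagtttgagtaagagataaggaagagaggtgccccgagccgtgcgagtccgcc
Six3: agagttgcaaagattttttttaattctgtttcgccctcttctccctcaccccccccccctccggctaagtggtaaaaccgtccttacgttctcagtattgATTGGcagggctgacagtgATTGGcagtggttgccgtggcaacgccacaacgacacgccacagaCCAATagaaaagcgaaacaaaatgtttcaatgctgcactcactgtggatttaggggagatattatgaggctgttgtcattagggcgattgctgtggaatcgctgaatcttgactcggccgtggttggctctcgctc
Six6: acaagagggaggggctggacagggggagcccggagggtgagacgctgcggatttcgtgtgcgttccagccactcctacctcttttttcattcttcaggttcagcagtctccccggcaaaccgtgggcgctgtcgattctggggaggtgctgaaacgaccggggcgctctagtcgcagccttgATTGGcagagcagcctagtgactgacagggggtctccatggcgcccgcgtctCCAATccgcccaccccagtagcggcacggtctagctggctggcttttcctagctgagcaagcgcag
The Otp window holds 1 box, which begins 100 bases before the start. The Isl1 window has boxes 80 and 34 bases before the start, Six6 has them at 68 and 16, and Six3 has 3 boxes at 150, 131 and 86. The GC box GGGCGG was in 4 of the 8 (Otp, Nkx2-1, Fezf1 and Six6; 35.9% of all promoters) and TATAAA in 1, Sim1 (14.2%). The letters TAATTA, read by many homeodomain proteins, AAGGTCA, read by Nr5a1, CAAGTG, read by Nkx2 factors, and GGTGTGA, read by T-box factors, were in 0 of the 8, against 5.31%, 4.66%, 13.5% and 3.96% of all promoters. ACGTG, a core read by bHLH-PAS dimers such as that of Sim1, was in 1, Isl1 (19.7%). Each motif was searched on both strands and none contains another. The ratio of observed to expected CpG had a median of 0.761 in the 8 windows, against 0.388 over all promoters, and their median GC content was 56.2% against 52.7%. These matches describe letters and are not evidence of binding.

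Libraries held 7871010 to 16265481 counts. The female NP hippocampus library has the lowest total and carries no counts past Park7 on chromosome 4, on 5 to 9, on the sex chromosomes or on M. Its 19598 affected genes, which include Fezf1 and Tbx3, were treated as not measured there, so hippocampus has 3 libraries for these 2 members and 4 for the other 8. Levels are given as counts and as CPM, the count relative to the scaled size of its library. By the rule of 3 counts, a count of 0 allows up to 0.164 to 0.310 CPM per library, and the exact 95% interval of a 0 reaches up to 0.381 CPM, counting error only. In bulk tissue, fewer cells of a type and less RNA per cell cannot be told apart.

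All 10 factors stood far higher in hypothalamus than in the other regions, and 9 of the 10 had 0 to 20 counts in each library elsewhere. Both hypothalamus libraries lay above every other library for 10 of 10 members, against 27.1% of the 17550 genes tested. The lower hypothalamus library was at least 10 times the highest other library for 9 of 10, against 0.667% of genes (117). Tbx3 was the exception. By edgeR's quasi-likelihood test with Benjamini-Hochberg adjustment, 10 of 10 members were higher in hypothalamus than in prefrontal cortex, where 33.2% of all genes were called higher and 30.5% lower (63.6% in all). Against hippocampus 10 of 10 were also higher, where 30.4% of all genes were called higher and 29.9% lower (60.3% in all). Most members, near 0 elsewhere, passed the filter on low counts only through hypothalamus. A gene kept in this way is all but sure to be higher there. The shares of all genes, for separation and for calls, are therefore context and no test of the members. The median log2 difference of the members was 8.19 against prefrontal cortex and 6.86 against hippocampus, and that of all genes 0.02 and 0.01. The 2 comparisons share the hypothalamus libraries.

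**Figure D1:**
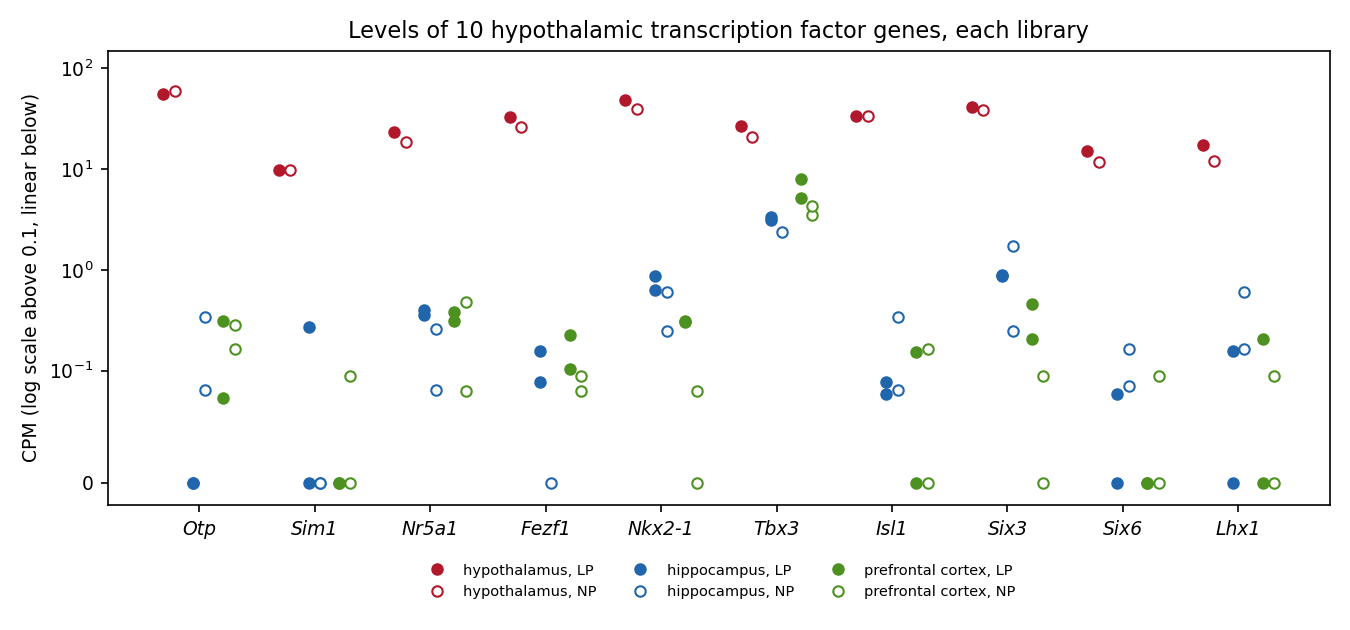
Level of each of the 10 factors in every library, in CPM on a scale that is logarithmic above 0.1 and linear below, with hypothalamus at the left, then hippocampus and prefrontal cortex, and LP before NP. Every gene lies highest in the 2 hypothalamus libraries (Otp at 55.2 and 59.5 CPM, Sim1 at 9.93 and 9.88), and only Tbx3 keeps 29 to 78 counts in each measured library of the other regions.

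Of the paraventricular and supraoptic pair, Otp (ENSMUSG00000021685, GRCm38 chromosome 13, 94875602 to 94885130, plus strand) is a homeobox gene needed for the neurons that make Crh, Trh, Oxt, Avp and Sst. It had 918 counts (55.2 CPM) in LP hypothalamus and 1089 counts (59.5 CPM) in NP hypothalamus. In hippocampus it had 0 counts in LP male, 0 in LP female, 1 in NP male and 4 in NP female, and in prefrontal cortex 1 in LP male, 3 in LP female, 2 in NP male and 3 in NP female. Hypothalamus and the other regions did not overlap. The log2 difference was 9.81 ± 0.29 (SE) against hippocampus (adjusted p = 2.67e-14, edgeR) and 8.92 ± 0.26 against prefrontal cortex (adjusted p = 2.58e-14). Pooled over libraries, CPM in hypothalamus was 546 times that in hippocampus (exact 95% interval 234 to 1683) and 290 times that in prefrontal cortex (153 to 636), counting error only.

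Sim1 (ENSMUSG00000019913, chromosome 10, 50894754 to 50989152, plus strand) encodes a bHLH-PAS factor that pairs with Arnt2, and loss of 1 copy causes obesity in mice and humans. It had 165 counts (9.93 CPM) in LP hypothalamus and 181 counts (9.88 CPM) in NP hypothalamus. In hippocampus the counts were 0 in LP male, 3 in LP female, 0 in NP male and 0 in NP female, and in prefrontal cortex 0 in LP male, 0 in LP female, 0 in NP male and 1 in NP female. Sim1 was the lowest member in CPM, and no library outside hypothalamus exceeded 3 counts. The log2 difference was 9.51 ± 0.64 against hippocampus (adjusted p = 2.37e-08, edgeR) and 10.62 ± 0.69 against prefrontal cortex (adjusted p = 1.67e-08). From pooled counts, with 3 in hippocampus and 1 in prefrontal cortex, the ratio was 157 over hippocampus (53.2 to 764) and 450 over prefrontal cortex (80.3 to 17844), both well under the fitted differences.

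Nr5a1 and Fezf1 mark the ventromedial nucleus. Nr5a1 (ENSMUSG00000026751, chromosome 2, 38692656 to 38714542, minus strand) encodes SF-1, an orphan nuclear receptor also used by adrenal, gonad and pituitary gonadotropes. It had 389 counts (23.4 CPM) in LP hypothalamus and 344 counts (18.8 CPM) in NP hypothalamus. The hippocampus counts were 5 in LP male, 4 in LP female, 1 in NP male and 3 in NP female, and the prefrontal cortex counts 5 in LP male, 3 in LP female, 1 in NP male and 5 in NP female. Nr5a1 thus had at most 5 counts in each library of the other regions. It differed by 6.47 ± 0.27 on the log2 scale from hippocampus (adjusted p = 7.33e-11, edgeR) and by 6.30 ± 0.27 from prefrontal cortex (adjusted p = 7.08e-11).

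Fezf1 (ENSMUSG00000029697, chromosome 6, 23245044 to 23248362, minus strand) encodes a zinc finger repressor of forebrain and olfactory development. It had 547 counts (32.9 CPM) in LP hypothalamus and 485 counts (26.5 CPM) in NP hypothalamus. In hippocampus it had 2 counts in LP male, 1 in LP female and 0 in NP male, and in prefrontal cortex 3 in LP male and 1 each in LP female, NP male and NP female. None of the 7 measured libraries of the other regions exceeded 3 counts. Hypothalamus differed on the log2 scale by 8.21 ± 0.29 against hippocampus (adjusted p = 2.34e-13, edgeR) and 7.52 ± 0.26 against prefrontal cortex (adjusted p = 2.97e-13).

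Of the tuberal factors, Nkx2-1 (ENSMUSG00000001496, chromosome 12, 56531958 to 56536908, minus strand) is a homeobox gene of the ventral hypothalamus, thyroid and lung, and also specifies cortical interneurons in the embryo. It had 816 counts (49.1 CPM) in LP hypothalamus and 723 counts (39.5 CPM) in NP hypothalamus. The hippocampus libraries had 11 in LP male, 7 in LP female, 3 in NP male and 7 in NP female, and the prefrontal cortex libraries 4 in LP male, 3 in LP female, 1 in NP male and 0 in NP female. Low counts were thus present in every hippocampus library. Nkx2-1 differed on the log2 scale by 6.19 ± 0.22 against hippocampus (adjusted p = 5.86e-12, edgeR) and 7.88 ± 0.27 against prefrontal cortex (adjusted p = 2.84e-12).

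Isl1 (ENSMUSG00000042258, chromosome 13, 116298281 to 116309689, minus strand) is a LIM homeobox gene that drives Pomc in arcuate neurons. It had 563 counts (33.9 CPM) in LP hypothalamus and 613 counts (33.5 CPM) in NP hypothalamus. In hippocampus it had 1 count each in LP male, LP female and NP male and 4 in NP female, and in prefrontal cortex 2 in LP male, 0 in LP female, 2 in NP male and 0 in NP female. No library outside hypothalamus exceeded 4 counts. The log2 difference was 7.68 ± 0.30 against hippocampus (adjusted p = 5.63e-13, edgeR) and 8.38 ± 0.32 against prefrontal cortex (adjusted p = 4.60e-13).

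Tbx3 (ENSMUSG00000018604, chromosome 5, 119670669 to 119684724, plus strand) is a T-box gene that keeps up the identity of arcuate Pomc and Agrp neurons. It had 448 counts (27.0 CPM) in LP hypothalamus and 379 counts (20.7 CPM) in NP hypothalamus. In hippocampus it had 42 counts in LP male, 35 in LP female and 29 in NP male, and in prefrontal cortex 69 in LP male, 78 in LP female, 52 in NP male and 37 in NP female. Unlike the other 9 members, Tbx3 was plainly detected in every measured library. Its level averaged 23.8 ± 4.43 CPM in hypothalamus (SD, n = 2), 2.95 ± 0.490 CPM in hippocampus (n = 3) and 5.28 ± 1.98 CPM in prefrontal cortex (n = 4). Hypothalamus was 8.61-fold above hippocampus (log2 3.11 ± 0.17, adjusted p = 1.51e-09, edgeR) and 4.76-fold above prefrontal cortex (log2 2.25 ± 0.16, adjusted p = 1.75e-08).

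Six3 (ENSMUSG00000038805, chromosome 17, 85613608 to 85629302, plus strand), a homeobox gene of forebrain and eye development that stays on in the suprachiasmatic nucleus, had 683 counts (41.1 CPM) in LP hypothalamus and 714 counts (38.98 CPM) in NP hypothalamus. In hippocampus it had 11 counts in LP male, 10 in LP female, 3 in NP male and 20 in NP female, and in prefrontal cortex 6 in LP male, 2 in LP female, 0 in NP male and 1 in NP female. The NP female hippocampus library was the highest outside hypothalamus. On the log2 scale Six3 differed by 5.87 ± 0.28 against hippocampus (adjusted p = 1.41e-10, edgeR) and 8.01 ± 0.34 against prefrontal cortex (adjusted p = 4.36e-11).

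Six6 (ENSMUSG00000021099, chromosome 12, 72939892 to 72944899, plus strand) is its close relative, used in retina, pituitary and suprachiasmatic nucleus. It had 253 counts (15.2 CPM) in LP hypothalamus and 214 counts (11.7 CPM) in NP hypothalamus. The counts in hippocampus were 1 in LP male, 0 in LP female, 2 in NP male and 1 in NP female, and in prefrontal cortex 0 in LP male, 0 in LP female, 0 in NP male and 1 in NP female. Six6 was near 0 in both regions, without the hippocampal counts seen for Six3. On the log2 scale it differed by 6.98 ± 0.39 against hippocampus (adjusted p = 5.73e-11, edgeR) and 8.56 ± 0.46 against prefrontal cortex (adjusted p = 3.24e-11).

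Lhx1 (ENSMUSG00000018698, chromosome 11, 84518284 to 84525535, minus strand) is a LIM homeobox gene that sustains peptides of the suprachiasmatic nucleus such as Vip. It had 290 counts (17.5 CPM) in LP hypothalamus and 223 counts (12.2 CPM) in NP hypothalamus. In hippocampus it had 2 counts in LP male, 0 in LP female, 2 in NP male and 7 in NP female, and in prefrontal cortex 0 in LP male, 2 in LP female, 0 in NP male and 1 in NP female. As for Six3, the highest count outside hypothalamus was in NP female hippocampus. The log2 difference was 6.74 ± 0.40 against hippocampus (adjusted p = 7.25e-11, edgeR) and 8.37 ± 0.46 against prefrontal cortex (adjusted p = 2.93e-11).

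**Figure D2:**
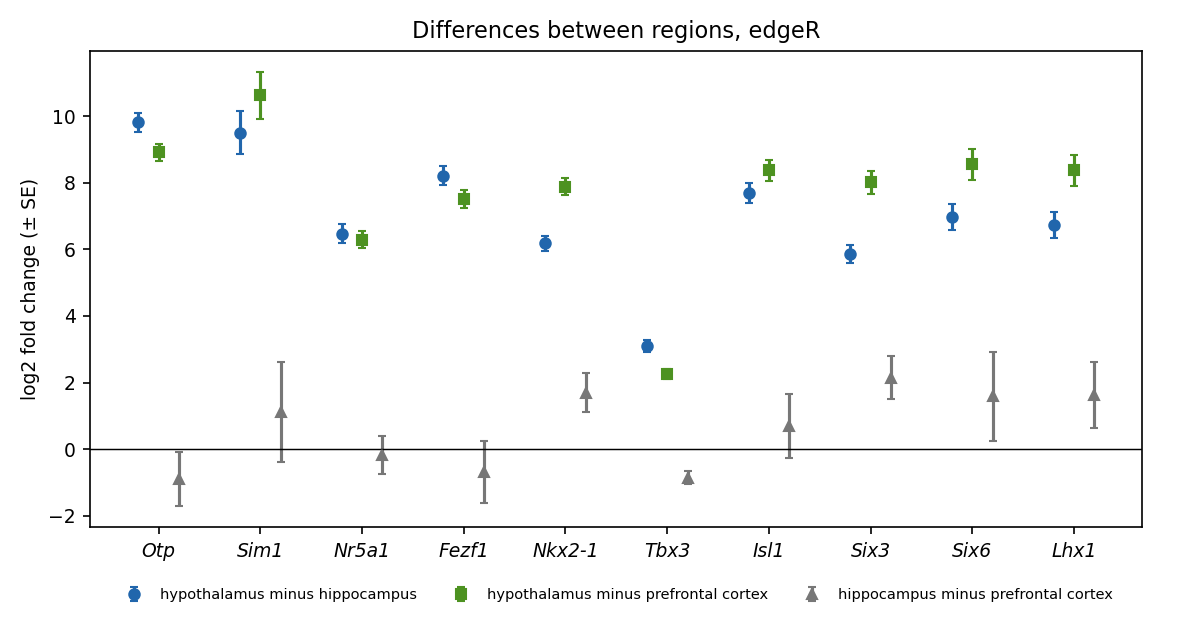
Log2 differences of the 10 factors with their standard errors from edgeR's fit, for hypothalamus against hippocampus and against prefrontal cortex. Hippocampus against prefrontal cortex is plotted as well. In the hypothalamus comparisons Tbx3 lies lowest, at 3.11 and 2.25, and Otp lies at 9.81 and 8.92. The place of Sim1 (9.51 and 10.62) rests on 3 counts in hippocampus and 1 in prefrontal cortex, and its pooled ratio over hippocampus, 157, is under that of Otp, 546.

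Set per kilobase of exon so that genes can be compared, the level in hypothalamus was highest for Otp at 19.9 ± 1.04 CPM per kb (SD, n = 2). It was followed by Nkx2-1 at 15.6 ± 2.40, Fezf1 at 12.3 ± 1.89, Isl1 at 8.51 ± 0.0729, Six3 at 7.35 ± 0.275 and Nr5a1 at 4.97 ± 0.771 CPM per kb. Lhx1 at 3.64 ± 0.916, Tbx3 at 3.60 ± 0.669 and Six6 at 3.36 ± 0.624 CPM per kb came next, and Sim1 was lowest at 1.15 ± 0.00378. Only the neighbours Lhx1 and Tbx3, and Tbx3 and Six6, overlapped between their 2 libraries. Sim1, the partner of Otp in the same nuclei, was thus at the other end of the order. The order rests on exon length merged over all annotated transcripts.

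Between hippocampus and prefrontal cortex, 3 of 10 members passed the test, where 53.4% of all genes were called. Most members hold 0 to 7 counts per library in these regions and passed the filter on low counts only through hypothalamus, so their count is not read against that share. Six3 was higher in hippocampus, at 0.934 ± 0.606 CPM in hippocampus and 0.189 ± 0.196 CPM in prefrontal cortex (SD, n = 4 each; log2 2.15 ± 0.65, adjusted p = 0.0122, edgeR). Nkx2-1 was higher too, at 0.587 ± 0.257 CPM in hippocampus and 0.174 ± 0.157 CPM in prefrontal cortex (log2 1.70 ± 0.59, adjusted p = 0.0255). Tbx3 was the 1 lower member (log2 -0.86 ± 0.20, adjusted p = 0.00278). Of all genes 27.3% were called higher and 26.1% lower. The other 7 ran from -0.90 for Otp to 1.63 for Lhx1. The 2 higher calls rest on few counts: without the NP female prefrontal cortex library the adjusted p was 0.0513 for Six3 and 0.0652 for Nkx2-1. Nkx2-1 also lost its call without the LP male hippocampus library (0.112) or the NP male prefrontal cortex library (0.0687), and Lhx1 gained one without the LP female hippocampus library (0.0120).

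Markers of neighbouring tissue differed between these libraries. Marker sums, here and below, cover only the listed genes counted in all libraries. Thalamus marker genes summed to 121 CPM in LP male, 133 in LP female, 102 in NP male and 199.96 in NP female hippocampus, against 33.2 to 38.4 CPM in prefrontal cortex, and 5 of 7 tested ones were higher in hippocampus. Prkcd alone averaged 79.5 CPM in hippocampus. The NP female hippocampus library, highest in thalamus markers, also had the highest count of Six3, Lhx1, Isl1 and Otp outside hypothalamus. Those of Sim1, Nkx2-1, Nr5a1 and Six6 were in other libraries. The part of neighbouring tissue in the results was not tested. Pituitary markers summed to 545 CPM in the NP male hippocampus library, which had 2 counts of Six6 and 1 each of Isl1 and Nr5a1.

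Reads of genes that overlap a member cannot be assigned with certainty, since the strand setting of the counting is not given in the sources used here. Several divergent or antisense transcripts beside the members had the same regional pattern. Six3os1, which overlaps Six3, had 300 counts in LP hypothalamus and 333 in NP hypothalamus, against 1 to 12 in each other library. C130093G08Rik, 2771 bases from Fezf1, had 248 counts in LP hypothalamus and 284 in NP hypothalamus, against 0 to 2 in the other libraries where it was measured. Lhx1os, 125 bases from Lhx1, had 167 in LP hypothalamus and 129 in NP hypothalamus, against 0 to 2 elsewhere (log2 7.84 ± 0.60 against hippocampus and 8.52 ± 0.64 against prefrontal cortex, both past the threshold in edgeR). These 3 are neighbours of members that were themselves near 0 outside hypothalamus. Beside Tbx3, the overlapping Tbx3os1 had 35 counts in LP hypothalamus and 36 in NP hypothalamus, against 6 to 19 in the other measured libraries. Tbx3os2, 371 bases away, had 37 in LP hypothalamus, 25 in NP hypothalamus and 0 in every other library where it was measured. The locus of Tbx3 thus held 1 transcript detected in every region and 1 detected in hypothalamus alone at this depth. Gm26973, antisense to Nkx2-1, had 33 counts in LP hypothalamus and 37 in NP hypothalamus, and Nr5a1os, which overlaps Nr5a1, had 6 in LP hypothalamus and 16 in NP hypothalamus. 4930447C04Rik, which overlaps Six6, was broader, with 316 counts in LP hypothalamus, 368 in NP hypothalamus and 67 to 173 elsewhere. Also within 10 kb of a member lay Nr6a1, Adgrd2-ps, Gm28528, Gm26709, Gm38170, Aatf and 7 small RNA annotations at 0 counts in every library.

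The partners through which these factors act were not regional in the same way. Of 12 partners and cofactors, among them Arnt2, the Eya and Dach partners of Six3 and Six6, and the Ldb and Lmo partners of LIM factors, 2 were higher in hypothalamus than in prefrontal cortex, 8 were lower and 2 did not pass, with a median log2 difference of -0.54. Against hippocampus 3 were higher, 6 lower and 3 did not pass, with a median of -0.33. Arnt2, the dimer partner of Sim1, averaged 229 ± 3.21 CPM in hypothalamus (SD, n = 2), 275 ± 2.89 CPM in hippocampus (n = 3) and 746 ± 23.9 CPM in prefrontal cortex (n = 4). It was lower in hypothalamus than in prefrontal cortex by a log2 difference of -1.70 ± 0.05. Nr0b1, a repressor that binds Nr5a1, was 1 of those higher in hypothalamus, by 4.78 ± 0.59 against hippocampus and 4.31 ± 0.54 against prefrontal cortex.

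A wider set of 41 other transcription factors known from hypothalamic development was largely higher in hypothalamus as well. Of 39 tested, all but Lhx8 and Dbx1, 29 were higher than in prefrontal cortex and 5 lower, and 30 were higher than in hippocampus and 7 lower. Their medians, 3.13 and 3.01 on the log2 scale, lay under those of the 10 members; both were the same with the genes at 0 in the other region (4 in prefrontal cortex, 3 in hippocampus) set to their lower bound. Bsx, a homeobox gene of the arcuate and dorsomedial nuclei, was at 120 counts in LP hypothalamus and 88 in NP hypothalamus and at 0 in every other library where it was measured. Not all members of the set follow hypothalamus: Lhx9 averaged 3.10 ± 1.33 CPM in hypothalamus and 26.6 ± 1.22 CPM in hippocampus, and Prox1 28.4 ± 1.42 CPM in hypothalamus and 114 ± 7.36 CPM in hippocampus, where it marks dentate granule cells.

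Turning to diet, the labels set LP against NP to ask what perinatal protein shortage leaves in the adult brain. Within hypothalamus, Lhx1, Tbx3, Six6, Nr5a1, Nkx2-1 and Fezf1 were higher in the LP library than in the NP library beyond counting error, and Otp, Sim1, Isl1 and Six3 were not. With 1 library per diet the pair has no replicate check and no p-value. The 6 of 10 members with separate exact 95% intervals, all higher in LP, compare with 10.1% of all genes higher and 8.45% lower by the same rule. Among the 11325 genes with at least 300 counts over both libraries the shares were 13% and 12%. In log2 of LP over NP, Lhx1 stood at 0.52 (0.26 to 0.78), Tbx3 at 0.38 (0.18 to 0.58) and Six6 at 0.38 (0.11 to 0.65). The ventromedial factors Nr5a1 at 0.32 (0.10 to 0.53) and Fezf1 at 0.31 (0.13 to 0.49) stood beside Nkx2-1 at 0.31 (0.17 to 0.46). The differences were small: the largest, of Lhx1, was 17.5 CPM in LP hypothalamus against 12.2 CPM in NP hypothalamus. Six3 was at 0.08 (-0.08 to 0.23), Isl1 at 0.02 (-0.15 to 0.18), Sim1 at 0.01 (-0.31 to 0.32) and Otp at -0.11 (-0.23 to 0.02). The members' median was 0.31, that of all genes -0.01, and the 5th to 95th percentile of genes with at least 300 counts ran from -0.29 to 0.39.

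**Figure D3:**
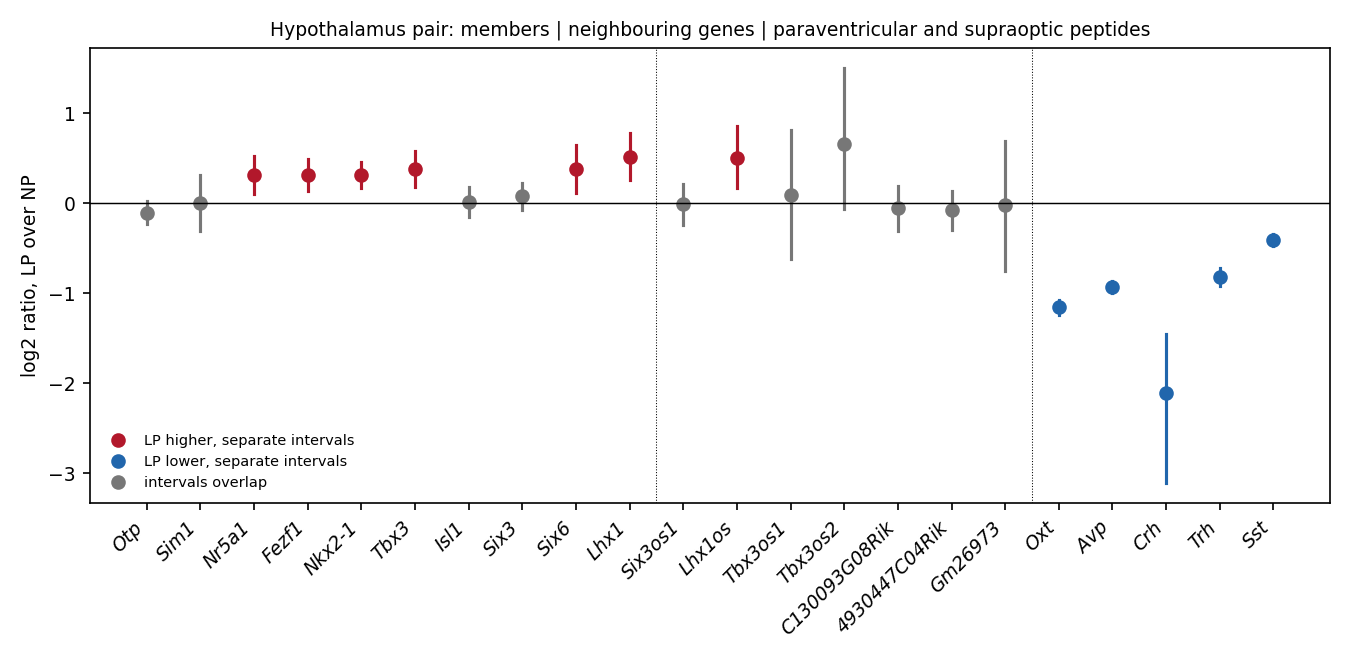
Log2 ratio of CPM in LP hypothalamus over NP hypothalamus, with exact 95% intervals of the counts, 1 library per diet. From left to right, between dotted lines, are the 10 factors, genes that neighbour them, and the 5 paraventricular and supraoptic peptides. The intervals of 6 factors lie above 0, with Lhx1 at 0.52, and those of Otp, Sim1, Isl1 and Six3 include 0.

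The split followed the nuclei only in part. Both ventromedial factors were higher in LP, as were 2 of the 3 tuberal and 2 of the 3 suprachiasmatic ones, and neither factor of the paraventricular and supraoptic nuclei was. The close relatives Six6 and Six3 fell on different sides. The neighbour of Lhx1, Lhx1os, stood at 0.51 (0.17 to 0.86), whereas Six3os1 stood at -0.01 and Tbx3os1 at 0.09. No test of a difference between members can be made from 1 pair.

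Genes known from the same nuclei differed in both directions, though not all of them are particular to hypothalamus in these libraries. All 5 paraventricular and supraoptic peptides were lower in LP beyond counting error, with Avp at 2578 counts in LP and 5402 in NP hypothalamus (log2 -0.93), Oxt at 1459 in LP and 3589 in NP (-1.16), and Crh at 16 in LP and 83 in NP (-2.11). Otp and Sim1, which specify those neurons, stood at -0.11 and 0.01 in the same libraries. Of 8 arcuate peptides 1 was higher, Pomc at 2093 counts in LP and 2047 in NP (0.17), and 1 lower, Gal at 747 in LP and 1297 in NP (-0.65). Of 5 lateral hypothalamic and histaminergic genes 3 were lower, with Hcrt at 290 in LP and 1523 in NP (-2.25), Pmch at 1156 in LP and 2193 in NP (-0.78) and Nts (-0.80), and 1 was higher, Hdc (0.38). Of 7 ventromedial genes 3 were higher (Bdnf 0.50, Slc17a6 0.29 and Adcyap1 0.22) and 0 lower, and of 8 suprachiasmatic genes 3 were higher (Vip 0.94, Rgs16 0.64 and Rora 0.36) and 0 lower. These genes were named for passing this rule. Between regions, 3 of the 5 paraventricular and supraoptic, 5 of the 7 ventromedial and 5 of the 8 suprachiasmatic genes were called higher in hypothalamus than in prefrontal cortex. The rest of these lists were called lower. Vip averaged 12.0 CPM in hypothalamus and 58.6 in prefrontal cortex, Bdnf 22.5 and 45.1, Crh 2.75 and 4.88, and Sst 204 and 284. Of the arcuate peptides 7 of 8 were called higher, and of the lateral and histaminergic genes 5 of 5. Of the 12 partners, Eya1 (0.98) and Dach1 (0.54) were higher and 0 lower, and Arnt2 was at 0.03.

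Of the 39 other factors, 8 were higher in LP hypothalamus and 5 lower, with a median of 0.10. Among the higher ones were Foxd1 (0.92), Barhl2 (0.78), Foxb1 (0.63), Bsx (0.58), Nhlh2 (0.42), Pgr (0.28) and Rorb (0.26). Foxb1 is a gene of the mammillary body. The lower ones were led by Lhx6, with 54 counts in LP and 212 in NP, and Meis2, with 49 in LP and 190 in NP, and also included Lhx9 (-0.87) and Dlx1 (-0.37). Lhx6 and Dlx1 are known for GABA neurons of the forebrain. The lower ones named here averaged less in hypothalamus than in hippocampus. Meis2 was at 6.66 CPM in hypothalamus, 27.2 in hippocampus and 92.5 in prefrontal cortex. Lhx6 was at 7.41, 18.7 and 24.8 CPM in the same order, and Dlx1 at 29.3, 33.5 and 43.9 CPM.

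**Figure D4:**
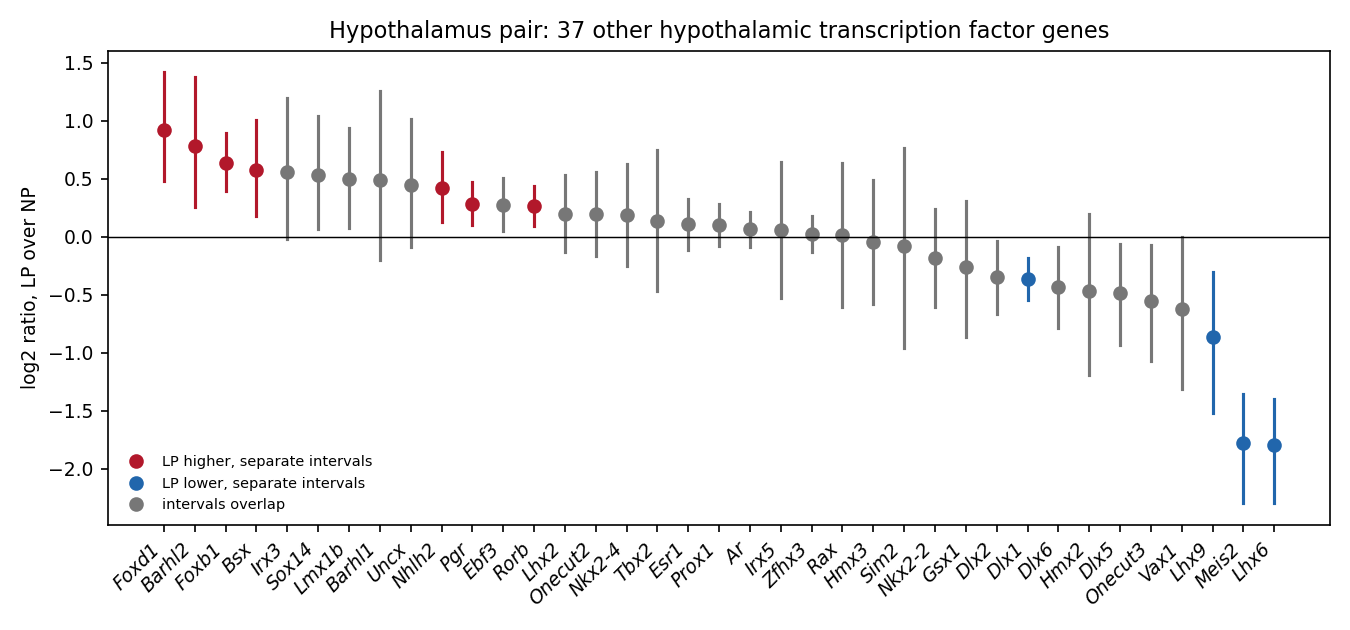
Log2 ratio of CPM in LP hypothalamus over NP hypothalamus for 37 other hypothalamic transcription factors, with exact 95% intervals, 1 library per diet. Foxd1 lies highest at 0.92 and Lhx6 lowest at -1.80, a wider range than the members' -0.11 to 0.52.

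Markers of bordering tissue also differed between the 2 hypothalamus libraries. Midbrain dopamine markers summed to 245 CPM in LP and 121 CPM in NP hypothalamus, all 4 tested ones higher in LP beyond counting error, with the dopamine transporter Slc6a3 at 779 counts in LP and 97 in NP. Pituitary markers summed to 33.2 CPM in LP and 113 CPM in NP, 2 of 8 lower in LP and 0 higher, with Gh at 227 counts in LP and 1403 in NP. Most of the NP sum came from Gh, at 13.7 CPM in LP and 76.6 in NP, and Prl, at 0.963 and 18.3. Of the 8 tested ones, 4 had a log2 ratio above 0 and 4 below, with a median of -0.095. Thalamus markers stood at 76.5 CPM in LP and 59.0 in NP, striatum markers at 171 in LP and 194 in NP, cortex markers at 254 in LP and 238 in NP, and choroid plexus markers at 31.5 in LP and 31.8 in NP. Near-equal sums can hide single markers. Rasgrf2 alone gave 233 CPM in LP and 214 in NP of the cortex sums, while Tbr1 had 10 counts in LP and 61 in NP. Beyond counting error, 1 of 8 cortex markers was higher in LP and 1 lower. For striatum it was 0 of 8 higher and 1 lower, for thalamus 2 of 7 and 1, and for choroid plexus 1 of 5 and 0. Of the midbrain dopamine markers, Foxa2 was at 0 in the NP library. The part of these marker differences in the members' ratios was not tested, and with 1 library per diet, tissue content and diet cannot be told apart. The LP hypothalamus library also carries a date-like tag in its label that differs from the tag shared by the other 9 libraries. What it marks is not stated, and it and diet cannot be told apart in this pair.

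Tbx3 was the only member with more than 20 counts in a library outside hypothalamus, and it was higher in LP in 4 of 4 measured pairs. In male hippocampus it had 42 counts in LP and 29 in NP, a log2 ratio of 0.45 (-0.24 to 1.21). In male prefrontal cortex it had 69 counts in LP and 52 in NP, a ratio of 0.28 (-0.25 to 0.84), and in female prefrontal cortex 78 in LP and 37 in NP, a ratio of 1.14 (0.61 to 1.79). The interval excludes 0 in hypothalamus and female prefrontal cortex alone. Among the low counts of the other members, Lhx1 went against its direction in hypothalamus, with 0 counts in LP and 7 in NP female hippocampus. Six3 had 6 in LP and 0 in NP male prefrontal cortex. In both, the interval of the log2 ratio excludes 0, but the intervals of the LP and NP libraries overlap. They were picked from many comparisons of low counts. For Tbx3 the difference over pairs was 0.50 ± 0.13 with an unadjusted p of 0.00314 and an adjusted p of 0.115 by edgeR, so it did not pass.

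**Figure D5:**
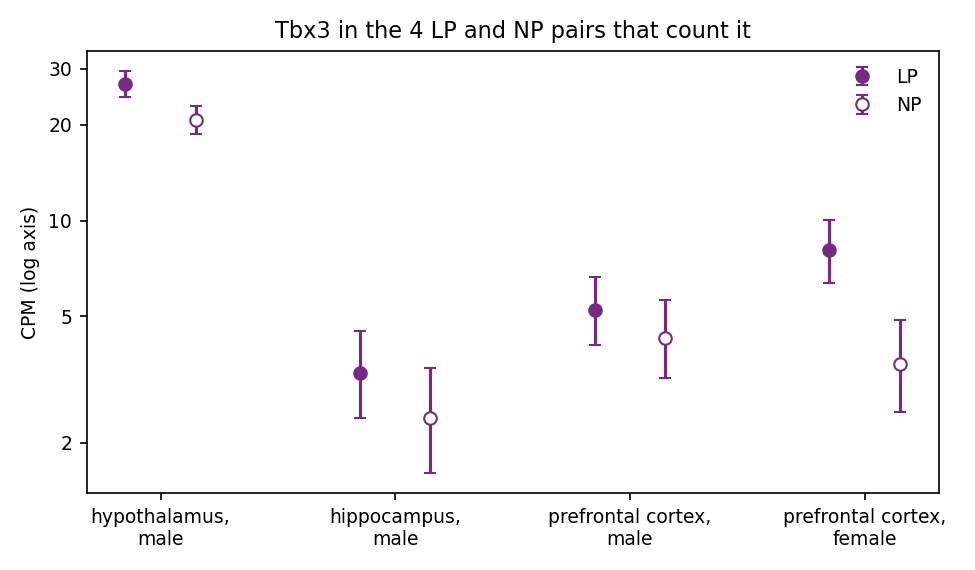
Tbx3 in CPM in the LP and NP library of each pair in which both were measured, with exact 95% Poisson intervals. LP lies above NP in 4 of 4 pairs, at 27.0 and 20.7 CPM in hypothalamus, and the intervals overlap in male hippocampus and male prefrontal cortex.

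Over all pairs, 0 of 10 members passed edgeR's test of LP against NP, in which 1.21% of all genes were called (0.849% higher and 0.359% lower). Before adjustment 4 members (Tbx3, Nkx2-1, Fezf1 and Nr5a1) were under the 0.05 level, against 13.7% of all genes, and DESeq2 also called 0. The difference was positive for 9 members and negative for Otp (-0.13 ± 0.13, adjusted p = 0.734), with a median of 0.35 against a median of all genes that rounds to zero. With DESeq2 the sign turned for Lhx1 (-0.41), Six6 (-0.0619) and Isl1 (-0.12). Except for Tbx3 the other pairs hold 0 to 20 counts per library, so these values are not a second measurement of the hypothalamus pair. Of the 12 partners, Tle3, a corepressor of the Groucho family, passed alone, at 0.35 ± 0.07 (adjusted p = 0.0411). It lost its call with no filter on low counts (0.0857), with the zeros of the incomplete library kept (0.883), and without the female prefrontal cortex pair (0.264), the male prefrontal cortex pair (0.130) or the male hippocampus pair (0.0666). Of the 39 other factors 0 passed, 20 positive and 19 negative.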

How the data were processed

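Libraries were made with a TruSeq kit from 1 µg of total RNA. Per the submitters' processing notes, CASAVA, FastQC 0.10.1 and STAR 2.5.0a were used with mm10. The table the authors deposited holds raw, whole-number counts for Ensembl genes, not normalized. Not given in the sources used here: the counting tool, its strand setting, the annotation release. Of 47729 genes, 47310 were matched to GENCODE M21 (GRCm38). Genes past the break in the female NP hippocampus library were missing values there, and 28131 genes measured in all 10 libraries set the TMM factors.

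CPM used these factors on each library's total over the genes measured in all libraries. Every such size was then divided by 1 common share, the mean share of counts that the other 9 libraries held on these genes. Those 9 libraries held 33.8% of their counts on the genes the incomplete library lacks. Genes were kept by filterByExpr (minimum count 10) in edgeR 4.0.16 and R 4.3.3 and tested by glmQLFit and glmQLFTest with Benjamini-Hochberg adjustment at 0.05. Region was fitted with sex and diet (5 residual degrees of freedom, 17550 genes). Diet was fitted within the 5 pairs (4 residual degrees of freedom, 17547 genes). Genes missing from 1 library were fitted without it, which for diet leaves Tbx3 and Fezf1 in 4 pairs. For a single pair the log2 ratio of CPM, with 2 counts added, has an exact 95% interval from the counts. Alternatives were DESeq2 1.42.0, other scaling, filters and designs, and leaving out libraries. The fits were tested on simulated data. Members, lists, tests and the rule for naming list genes were chosen with earlier results of these data known. The rule took the largest differences that passed, with the gene of highest mean CPM among those that did not. Genes named outside that rule were chosen after their values were seen. A few genes of these lists are not reported here.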

Additional observations from a re-analysis of the deposited data

Results flagged for a closer look

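In 18 groups of 4 libraries a single library was compared with the rest of its group, and 5 stood apart by Dixon's criterion. Chance meets it in about 1 of 20 for continuous values, a rate that does not hold for counts this low. A single nonzero library among zeros is always flagged. Each rests on a few counts. Sim1 was at 0.269 CPM (3 counts) in LP female hippocampus and at 0.0957 CPM (1 count) in NP female prefrontal cortex, with 0 in the other libraries of each region. Fezf1 was at 0.227 CPM (3 counts) in LP male prefrontal cortex, with 1 count in each of the others. Isl1 was at 0.345 CPM (4 counts) in NP female hippocampus, the library with the highest thalamus markers, with 1 count in each of the others. Six6 was at 0.0957 CPM (1 count) in NP female prefrontal cortex. All lie near or under what a count of 0 allows.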

How the results depend on the processing

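Of 17 alternatives, all kept 10 of 10 members higher in hypothalamus in both comparisons except the one that kept the zeros of the incomplete library as counts, which gave 9 (Tbx3 at adjusted p = 0.385 against prefrontal cortex and 0.0892 against hippocampus). That setting called 6039, 5573 and 5300 genes in place of 11164, 10581 and 9366 for hypothalamus against prefrontal cortex, hypothalamus against hippocampus and hippocampus against prefrontal cortex, 0 members in the last, higher or lower, and 1 gene for diet in place of 212. DESeq2 called 121 genes for diet. Leaving out 1 pair gave 72 to 246 genes for diet (72 without female prefrontal cortex, 82 without male hippocampus). For hippocampus against prefrontal cortex, region alone left 1 higher member, males only 0, and leaving out 1 library gave 0 to 3. The adjusted p of Tbx3 for diet ran from 0.112 to 0.883. Other scalings moved the members' median ratio in the hypothalamus pair by 0.00141 and 0.00770 and kept 6 members higher and 0 lower. No difference past the threshold changed sign, but some that did not pass did. For diet DESeq2 gave -0.12 for Isl1, -0.0619 for Six6 and -0.41 for Lhx1, the earlier method of edgeR -0.0234 for Isl1, and kept zeros -0.42 for Isl1, -0.78 for Six6 and -0.39 for Lhx1. For hippocampus against prefrontal cortex, males only gave 0.0443 for Nr5a1 and -0.89 for Isl1, and leaving out 1 library gave -0.55 to 0.0936 for Nr5a1, -0.23 to 1.21 for Isl1 and -1.47 to 2.38 for Sim1. No paired analysis was possible because each group has 1 library and the running numbers in the labels are shared by no libraries. The diet fit already compares LP with NP within region and sex. With 1 hypothalamus library per diet, counting error is the only error that can be measured in that pair.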

Other observations

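The 8 members measured in all 10 libraries were averaged into 1 profile of log2 CPM, and 8291 genes with at least 5 CPM in hypothalamus were ranked by Pearson correlation with it. Outside the members, Ece2, Gaa, Sparc, Scg2 and Ddc came nearest, with r of 0.995, 0.995, 0.993, 0.993 and 0.993, against 0.964 to 0.988 for the members themselves. The libraries share dissection and depth, so the values describe likeness of level only. Unlike most members, these genes were expressed in every region: Ddc, an enzyme of dopamine and serotonin synthesis, averaged 68.0 CPM in hypothalamus with 5.69 CPM in the highest other library, and Scg2, a secretory granule protein, 1078 CPM with 236 CPM.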
